A study of Mus musculus with 14 samples.

Results

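The mouse mitochondrial chromosome carries 37 annotated genes, which encode 13 mRNAs, 2 rRNAs and 22 tRNAs. They were taken as all rows of the count table that GENCODE M21 places on that chromosome, 37 of 48795 rows in all. Their levels were compared in cultures of explant fibroblasts, cells that crawl out of chopped lung or dorsal skin, held unstimulated on plastic and harvested by day 14. The groups were Rel-null lung (KO-mLF, 4 libraries), wild-type lung (WT-mLF, 5), Rel-null skin (KO-mDF, 3) and wild-type skin (WT-mDF, 2). Mice were male and aged 8 to 10 weeks, Rel-/- or wild type, with C57BL/6J as the labelled strain. The protein of Rel, c-Rel, belongs to the NF-kappaB transcription factors, and the labels give the null allele for the animal and not for a cell type. Library 10 of KO-mLF carries a treatment label that names skin, while its title and source name lung, and it was kept with lung. The labels do not say whether the libraries of a group came from separate animals, so the p-values measure only the spread between these libraries.

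Mitochondrial DNA is a small circle that is transcribed from both strands into long precursor RNAs. The tRNAs lie between most of the mRNAs and rRNAs, and their excision releases the flanking transcripts. The mRNAs encode core subunits of respiratory complexes I, III and IV and of ATP synthase, while the remaining subunits, the transcription machinery and the ribosomal proteins are made from nuclear genes. Of the 13 mRNAs, 12 are annotated on the plus strand, and mt-Nd6 alone on the minus strand. Over evolution, stretches of mitochondrial DNA have also been copied into the nuclear chromosomes, and a recent copy can be identical to its source.

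The libraries did not all carry the Rel level that their label calls for. Rel stood at 0.0651 to 4.06 CPM (counts scaled to the library total) in KO-mLF, against 1.10 to 17.3 CPM in WT-mLF, and at 0.0349, 9.42 and 9.47 CPM in KO-mDF 18, 19 and 20, against 10.9 and 11.5 CPM in WT-mDF. The table gives 1 count per gene, so a deletion of part of Rel would not be seen in it, and the directions given here follow the labels. Xist, which is made from the inactive X chromosome of female cells, was at 64.5 CPM in WT-mLF 1 and 732 CPM in WT-mDF 22, and at most 0.577 CPM in the other 12 libraries, although all mice are labelled male. Library totals ran between 12780350 and 30987933 counts, except for WT-mDF 22 with 2663437. All 9 fibroblast markers were detected in every library, with a summed level of 11581 to 130869 CPM. Macrophage markers summed to 4170.4 to 22372 CPM in lung cultures and 31.2 to 124 CPM in skin cultures. For each library, genes were taken with a mean of at least 5 CPM over the other libraries of its tissue, both genotypes together. Of these, 11.5% were at 0 in KO-mLF 7, 8.22% in WT-mDF 11, 5.78% in WT-mLF 4 and 3.37% in KO-mDF 18. The other 10 libraries had at most 0.728%.

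Mitochondrial mRNAs fell into a countable set and a set that was almost empty in all 14 libraries. The 7 countable mRNAs encode complex I subunits (mt-Nd1, mt-Nd2, mt-Nd4, mt-Nd5 and mt-Nd6), cytochrome b of complex III (mt-Cytb) and subunit I of cytochrome c oxidase, complex IV (mt-Co1). Each of these had at least 266 counts in every library. The 6 others encode subunits II and III of cytochrome c oxidase (mt-Co2 and mt-Co3), ATP synthase subunits (mt-Atp8 and mt-Atp6) and complex I subunits (mt-Nd3 and mt-Nd4l). None of them passed 80 counts in any library, and together they held 430 of 7688299 counts on mitochondrial mRNAs. Summed over 14 libraries, mt-Co2 had 44 counts, mt-Atp8 2, mt-Atp6 133, mt-Co3 149, mt-Nd3 101 and mt-Nd4l 1. The near-empty genes are neighbours and fill the stretch chrM:7013-10173 (GRCm38, plus strand), between mt-Co1 upstream and mt-Nd4 downstream.

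All near-empty mRNA genes except mt-Atp8 have annotated copies in the nuclear genome, and further copies cover parts of mt-Co1 and mt-Nd4. The following windows show some of the copies and their outer edges. GENCODE M21 annotates 7 unprocessed pseudogenes on the minus strand of chromosome 1 that align to mt-Co1, mt-Co2, mt-Atp6, mt-Co3, mt-Nd3, mt-Nd4l and mt-Nd4. All sequences are from the GENCODE M21 transcripts on GRCm38. The first pair covers positions 313 to 372 of mt-Co2 (chrM:7325-7384, plus strand) and the same positions of its copy Gm28661 (chr1:24615194-24615253, minus strand), which are identical and so carry no capitals.
mt-Co2: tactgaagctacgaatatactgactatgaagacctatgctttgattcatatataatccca
Gm28661: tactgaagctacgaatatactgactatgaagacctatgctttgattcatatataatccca
The second pair is the start of mt-Nd3 (chrM:9459-9518, plus strand) and of Gm28438 (chr1:24613060-24613119, minus strand), with the differing base in capitals. It is the substitution T3C, counted from 1 at the gene's 5′ end.
mt-Nd3: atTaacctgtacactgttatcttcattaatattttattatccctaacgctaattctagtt
Gm28438: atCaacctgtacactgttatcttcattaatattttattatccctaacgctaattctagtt
The third pair is the upstream edge of the annotated copies, inside mt-Co1 (chrM:6381-6440, plus strand) and at the start of Gm29216 (chr1:24616138-24616197, minus strand). Capitals mark the aligned differences T1056A, C1057T, A1059G, A1060G, C1062A and A1066T, counted from the 5′ end of mt-Co1. All stand at the start of the alignment, which is identical after position 1066. Whether these first bases belong to the copy was not tested.
mt-Co1: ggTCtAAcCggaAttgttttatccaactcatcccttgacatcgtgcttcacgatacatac
Gm29216: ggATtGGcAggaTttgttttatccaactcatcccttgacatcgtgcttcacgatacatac
The downstream edge lies inside mt-Nd4 (chrM:11013-11072, plus strand). Its copy Gm28439 ends with the last small letter, after 876 bases of mt-Nd4, and the 30 capitals are the first bases of mt-Nd4 beyond it.
mt-Nd4: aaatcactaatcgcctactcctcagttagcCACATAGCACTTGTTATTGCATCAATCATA

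Over their aligned length, 5 copies were identical to their mitochondrial gene. These were Gm28661 with 681 bases of mt-Co2, Gm10925 with 678 of mt-Atp6, Gm28437 with 783 of mt-Co3, Gm10222 with 294 of mt-Nd4l and Gm28439 with 876 of mt-Nd4. Gm28438 matched 344 of 345 bases of mt-Nd3. Gm29216 matched 486 of 492 bases at the 3′ end of mt-Co1, and all 6 differing bases stand in the window above. To see what a short read could tell apart, each mitochondrial transcript was cut into all its words of 75 bases, and the words were looked up in the transcripts of nuclear genes. Of these words, 99.5% were shared for mt-Co2, 99.5% for mt-Atp6, 99.9% for mt-Co3, 97.8% for mt-Nd3 and 98.7% for mt-Nd4l. The share was 61.5% for mt-Nd4, 39.8% for mt-Co1, 5.71% for mt-Nd2 and 1.66% for mt-Nd5. It was 0 for mt-Nd1, mt-Nd6, mt-Cytb, mt-Rnr1 and mt-Rnr2.

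**Figure D1:**
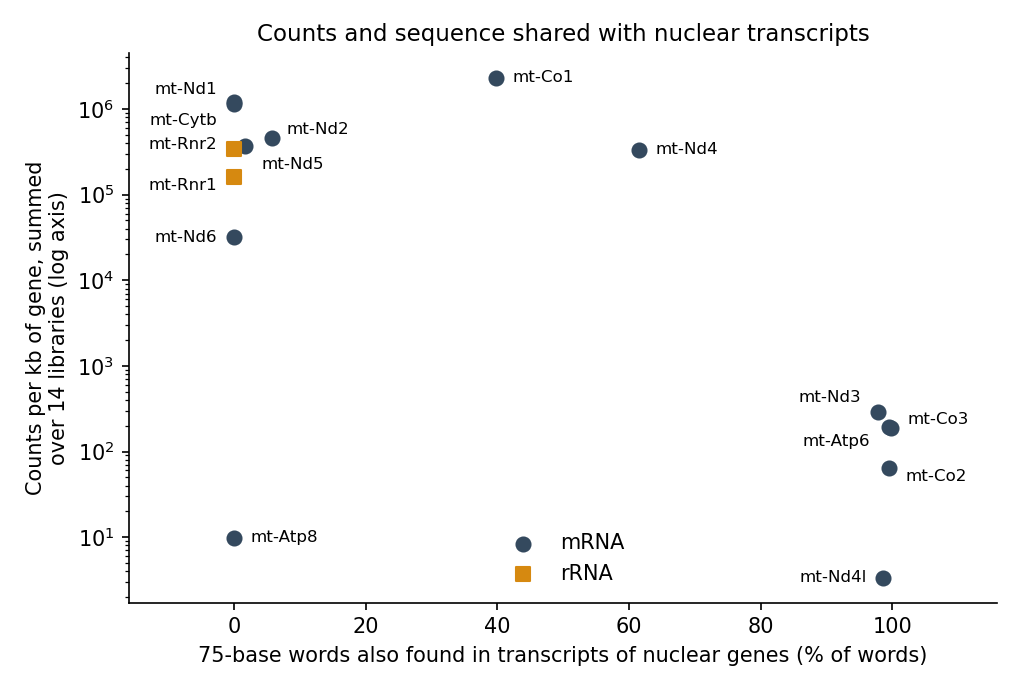
Counts per kilobase of gene, summed over 14 libraries (log axis), against the share of 75-base words that also occur in transcripts of nuclear genes, for 13 mitochondrial mRNAs (circles) and 2 rRNAs (squares). The 5 genes with 97.8% or more of their words shared lie at the lower right, mt-Co1 and mt-Nd4 stay high with 39.8% and 61.5% shared, and mt-Atp8 is low with none shared.

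Among the near-empty genes mt-Atp8 is the exception, as none of its 130 words was found in an annotated nuclear transcript. It lies between mt-Co2 and mt-Atp6, which are 230 bases apart on the mitochondrial chromosome, and their copies are 233 bases apart on chromosome 1. The bases between those copies belong to no gene listed for the copies and were not analysed here. The last 43 bases of mt-Atp8 are also the first 43 of mt-Atp6, marked by capitals in the window chrM:7910-7969 (plus strand).
mt-Atp8: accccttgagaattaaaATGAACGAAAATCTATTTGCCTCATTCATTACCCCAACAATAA
The copies themselves held few counts. Summed over 14 libraries, Gm28437 had 727 counts, Gm28661 252, Gm10925 200, Gm29216 197, Gm28439 41, Gm28438 16 and Gm10222 14. How reads that match several places were treated is not given in the sources used here, and its part in the near-empty genes was not tested. The same limit holds for the shared parts of mt-Co1 and mt-Nd4, whose levels are uncertain to that extent.

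Per length of distinct sequence, the countable genes spanned a wide range. The level here is CPM per 1000 distinct 75-base words, a scale on which genes can be set beside each other, and the medians are over 14 libraries. mt-Co1 (ENSMUSG00000064351, chrM:5328-6872) stood highest, at a median of 13320 and a range of 6658 to 30219. mt-Nd1 (ENSMUSG00000064341, chrM:2751-3707), a subunit of the membrane arm of complex I, followed with a median of 3908. mt-Cytb (ENSMUSG00000064370, chrM:14145-15288), the catalytic subunit of complex III that carries its b-type haems, had 3639. Next came mt-Nd4 (ENSMUSG00000064363, chrM:10167-11544) with 2662, mt-Nd2 (ENSMUSG00000064345, chrM:3914-4951) with 1620.1 and mt-Nd5 (ENSMUSG00000064367, chrM:11742-13565) with 1234, which encode further subunits of that membrane arm. The large rRNA mt-Rnr2 (ENSMUSG00000064339, chrM:1094-2675) had 1109, the small rRNA mt-Rnr1 (ENSMUSG00000064337, chrM:70-1024) had 517 and mt-Nd6 (ENSMUSG00000064368, chrM:13552-14070, minus strand) had 109.

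This scale would hold only if shared reads had not been counted, which is not known, so the places of mt-Nd4 and mt-Co1 depend on it. Per kilobase of the whole gene, the median of mt-Nd4 was 970 CPM, below mt-Nd2 with 1419, mt-Nd5 with 1164 and mt-Rnr2 with 1057 CPM, and that of mt-Co1 was 7630 CPM, still the highest. On the scale of distinct words, neighbours were not all apart. mt-Co1 exceeded mt-Nd1, mt-Rnr2 exceeded mt-Rnr1 and mt-Rnr1 exceeded mt-Nd6 in 14 of 14 libraries. mt-Nd1 exceeded mt-Cytb in 11, mt-Cytb exceeded mt-Nd4 in 12, mt-Nd4 exceeded mt-Nd2 in 13, mt-Nd2 exceeded mt-Nd5 in 12, and mt-Nd5 exceeded mt-Rnr2 in 9. mt-Nd6 and mt-Nd5 overlap by 14 bases on opposite strands, and mt-Nd6 counts were 0.962% to 5.35% of mt-Nd5 counts. The library kit is labelled as directional, but whether strand was used in counting is not given in the sources used here. The rRNA counts depend on how rRNA was removed or mRNA selected, which the labels do not give either.

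Mitochondrial genes took between 1.28% and 7.05% of a library's counts, a 5.51-fold range. In KO-mLF 7, 8, 9 and 10 the share was 2.80%, 2.22%, 3.09% and 2.19%, and in WT-mLF 1, 3, 4, 5 and 23 it was 2.51%, 1.28%, 1.82%, 2.61% and 2.74%. The lung groups overlapped, with means of 2.58% ± 0.444 (SD, n = 4) in KO-mLF and 2.19% ± 0.623 (SD, n = 5) in WT-mLF, a ratio of 1.17. In KO-mDF 18, 19 and 20 the share was 7.05%, 2.20% and 2.67%, against 4.08% and 3.65% in WT-mDF 11 and 22. KO-mDF 18 lay above both wild-type skin libraries, while KO-mDF 19 and 20 lay below them. The skin means were 3.97% ± 2.68 (SD, n = 3) in KO-mDF and 3.86% ± 0.303 (SD, n = 2) in WT-mDF, a ratio of 1.03, or 0.630 without KO-mDF 18. Skin exceeded lung 1.76-fold in wild type, without overlap, and 1.54-fold in Rel-null cultures, or 0.945-fold without KO-mDF 18. Counting error was far below these differences: the exact (Clopper-Pearson) 95% interval was 7.04% to 7.06% in KO-mDF 18 and 3.63% to 3.67% in WT-mDF 22, the shallowest library. Such intervals cover counting error only. In these bulk cultures, fewer cells of a type and less RNA per cell cannot be told apart.

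**Figure D2:**
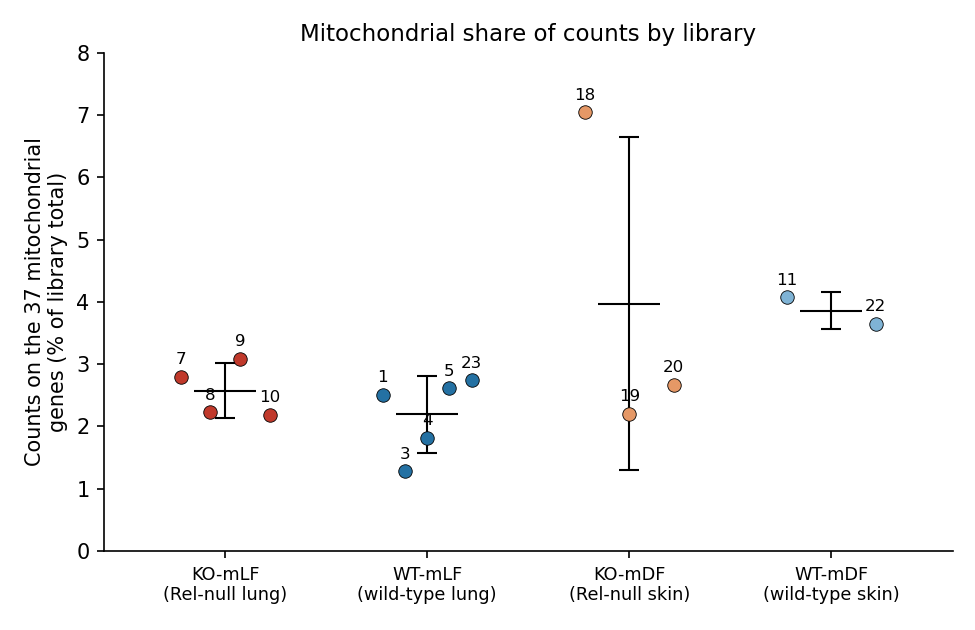
Counts on the 37 mitochondrial genes as a percentage of each library's total, by group; each point is 1 library with its number, and the bar with whiskers is the mean ± SD. KO-mDF 18 stands at 7.05% and the other 13 libraries lie between 1.28% and 4.08%.

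KO-mDF 18 also stood apart in other measures. Its keratinocyte markers summed to 2395 CPM, against 927 and 1473 CPM in KO-mDF 19 and 20 and 38.9 and 24.4 CPM in WT-mDF 11 and 22. All 7 markers of that list were above 0 in the 3 KO-mDF libraries, while 2 were at 0 in WT-mDF 11 and 1 in WT-mDF 22. The basal keratins Krt5 and Krt14 were at 431 and 1318 CPM in KO-mDF 18, the highest of all libraries, as were Krt15 and Dsp. Krt17 and Perp were higher in KO-mDF 20, at 390 and 221 CPM, against 360 and 124 CPM in KO-mDF 18. Trp63 was higher in WT-mDF 22, at 6.01 CPM, against 3.70 CPM in KO-mDF 18. Its fibroblast markers had the lowest sum of all libraries, 11581 CPM. The part of these cells in the mitochondrial share was not tested.

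In lung, the mitochondrial genes did not differ between Rel-null and wild-type cultures beyond the spread between libraries. Complex I mRNAs mt-Nd1 and mt-Nd2 had the largest positive differences among the countable mRNAs, mt-Nd6 the only sizeable negative one, and mt-Co1 and mt-Nd5 had differences near 0. With edgeR's quasi-likelihood test and Benjamini-Hochberg adjustment over 16408 genes, 0 of the 18 mitochondrial genes in the fit were called at an adjusted p of 0.05, in a comparison that called 0.0% of all genes. At an unadjusted p under 0.05 the count was 1 of 18, against 6.31% of all genes, or 1.83% counting only those higher in KO-mLF. DESeq2 and limma-voom called 0 as well. In the table's own terms, 10 of the 13 mRNAs, both rRNAs and 6 of the 22 tRNAs passed the filter on low counts, among them mt-Atp6, mt-Co3 and mt-Nd3.

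mt-Nd2 had 1953, 1429, 1759 and 1398 CPM in KO-mLF 7, 8, 9 and 10, against 1082, 758, 881, 1231 and 1512 CPM in WT-mLF 1, 3, 4, 5 and 23. Only WT-mLF 23 reached into the Rel-null range. The log2 fold change was 0.53 ± 0.31 (SE), with an unadjusted p of 0.0994 and an adjusted p of 0.829 in edgeR. mt-Nd1 had 3906, 3187, 4902 and 2761 CPM in KO-mLF, against 2518, 1799, 2311, 3073 and 3122 CPM in WT-mLF. The highest values were in Rel-null libraries 7 and 9, and the groups overlapped, with a log2 fold change of 0.48 ± 0.35 (SE) and an adjusted p of 0.920 in edgeR.

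mt-Nd6, the mRNA of the other strand, had 49.0, 17.6, 64.4 and 41.6 CPM in KO-mLF, against 45.7, 48.2, 88.5, 99.8 and 38.4 CPM in WT-mLF. KO-mLF 8 was lowest and WT-mLF 4 and 5 were highest, and the groups overlapped. The log2 fold change was -0.61 ± 0.41 (SE), with an unadjusted p of 0.151 and an adjusted p of 0.886 in edgeR. mt-Nd5, its neighbour on the plus strand, averaged 2058 ± 276 CPM in KO-mLF and 1975 ± 726 CPM in WT-mLF (SD, n = 4 and 5), with a log2 fold change of 0.01 ± 0.36 (SE).

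mt-Co1, the most abundant, had 11033, 10673, 13682 and 10071 CPM in KO-mLF, against 12543, 5893, 9679, 13081 and 14318 CPM in WT-mLF. The Rel-null values lay inside the wild-type range, and the log2 fold change of -0.01 ± 0.43 (SE) took the other sign under every other scaling tried. mt-Cytb averaged 3855 ± 1026 CPM in KO-mLF and 2707 ± 1166 CPM in WT-mLF, with a log2 fold change of 0.42 ± 0.45 (SE). mt-Nd4 averaged 1316 ± 262 CPM in KO-mLF and 1116 ± 331 CPM in WT-mLF, with a log2 fold change of 0.19 ± 0.37 (SE). The rRNAs, which form the core of the mitochondrial ribosome, were the only members of their class: mt-Rnr1 averaged 390.5 ± 198 CPM in KO-mLF and 298 ± 74.2 CPM in WT-mLF, and mt-Rnr2 averaged 1397 ± 705 CPM in KO-mLF and 998 ± 369 CPM in WT-mLF. Their log2 fold changes were 0.34 ± 0.36 and 0.43 ± 0.38 (SE), and 0.11 and 0.19 without KO-mLF 7. Of the 16408 genes tested, 0.993% were higher and 1.3% lower in every KO-mLF than in every WT-mLF library, and 0 of the 18 mitochondrial genes were in either set. The median log2 fold change was 0.19 over the 7 countable mRNAs and 0.10 over the 10 mRNAs tested, beside -0.08 over all genes.

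The near-empty mRNAs held too few counts for a comparison, and single libraries set their values. mt-Co3 had 42, 0, 2 and 6 counts in KO-mLF 7, 8, 9 and 10, against 5, 7, 2, 3 and 1 counts in WT-mLF 1, 3, 4, 5 and 23, so that KO-mLF 7 alone stood out. mt-Nd3 had 1, 4, 11 and 0 counts in KO-mLF, against 1, 26, 0, 12 and 2 counts in WT-mLF, and mt-Atp6 had 1, 3, 3 and 1 counts in KO-mLF, against 3, 1, 0, 6 and 3 counts in WT-mLF. In skin, KO-mDF 18 was high: mt-Atp6 had 80, 5 and 11 counts in KO-mDF 18, 19 and 20, against 13 and 3 counts in WT-mDF 11 and 22, and mt-Co3 had 60, 4 and 5 counts in KO-mDF, against 11 and 1 counts in WT-mDF. mt-Co2, mt-Atp8 and mt-Nd4l, with at most 10, 1 and 1 counts in any library, did not pass the filter.

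In skin, the countable mitochondrial genes showed small differences of both signs, and most of those signs rested on KO-mDF 18. The log2 fold changes of mt-Rnr1, mt-Nd1, mt-Nd4 and mt-Cytb also turned negative without WT-mDF 22, at -0.038, -0.081, -0.041 and -0.057. That fit leaves 1 library in WT-mDF. edgeR called 0 of 18 mitochondrial genes at an adjusted p of 0.05, where 0.0% of all genes were called, and 0 of 18 at an unadjusted p under 0.05, against 6.24% of all genes, or 3.65% counting only those higher in KO-mDF. DESeq2 and limma-voom also called 0 mitochondrial genes. mt-Co1 had 26744, 7497 and 9279 CPM in KO-mDF 18, 19 and 20, against 13286 and 13168 CPM in WT-mDF 11 and 22. KO-mDF 18 was above, and KO-mDF 19 and 20 below, both wild-type libraries. The log2 fold change was 0.18 ± 0.58 (SE) with all libraries and -0.57 without KO-mDF 18.

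mt-Cytb followed the same order, with 13909, 3642 and 4145 CPM in KO-mDF and 7260.2 and 5383 CPM in WT-mDF. Its log2 fold change was 0.23 ± 0.62 (SE), and -0.63 without KO-mDF 18. The values without that library were -0.35 for mt-Nd1, against 0.19 ± 0.48 (SE) with it, and -0.55 for mt-Nd4, against 0.09 ± 0.50 (SE) with it. mt-Nd2 had -0.64 without it and -0.18 ± 0.42 (SE) with it. The rRNAs had -0.45 for mt-Rnr1 and -0.15 for mt-Rnr2 without it, against 0.15 ± 0.49 and 0.36 ± 0.53 (SE) with it. In the reverse case KO-mDF 19 and 20 were left out, as their Rel level was near that of WT-mDF, which does not settle their genotype. The median over the 7 countable mRNAs was then 0.89, against 0.09 with all libraries. WT-mLF 4, with Rel at 1.10 CPM, was not left out on this ground. The fit without KO-mDF 19 and 20 was chosen after seeing the data. It leaves KO-mDF with 1 library, which is assumed to vary like the other groups.

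mt-Nd5 alone among the 9 countable genes had no overlap between the skin groups. It had 4250.1, 1475 and 1933 CPM in KO-mDF 18, 19 and 20, against 4732 and 4634 CPM in WT-mDF 11 and 22. All 3 Rel-null values were lower, KO-mDF 18 by little, and of all genes tested 11.5% were lower without overlap in this comparison. The log2 fold change was -0.83 ± 0.48 (SE), with an unadjusted p of 0.106 and an adjusted p of 0.787 in edgeR. mt-Nd6 had 88.3, 34.4 and 38.8 CPM in KO-mDF, against 70.3 and 99.9 CPM in WT-mDF, and a log2 fold change of -0.59 ± 0.54 (SE). The near-empty mt-Nd3 was also lower without overlap, with 0, 2 and 1 counts in KO-mDF and 40 and 1 counts in WT-mDF, a difference that rests on WT-mDF 11.

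**Figure D3:**
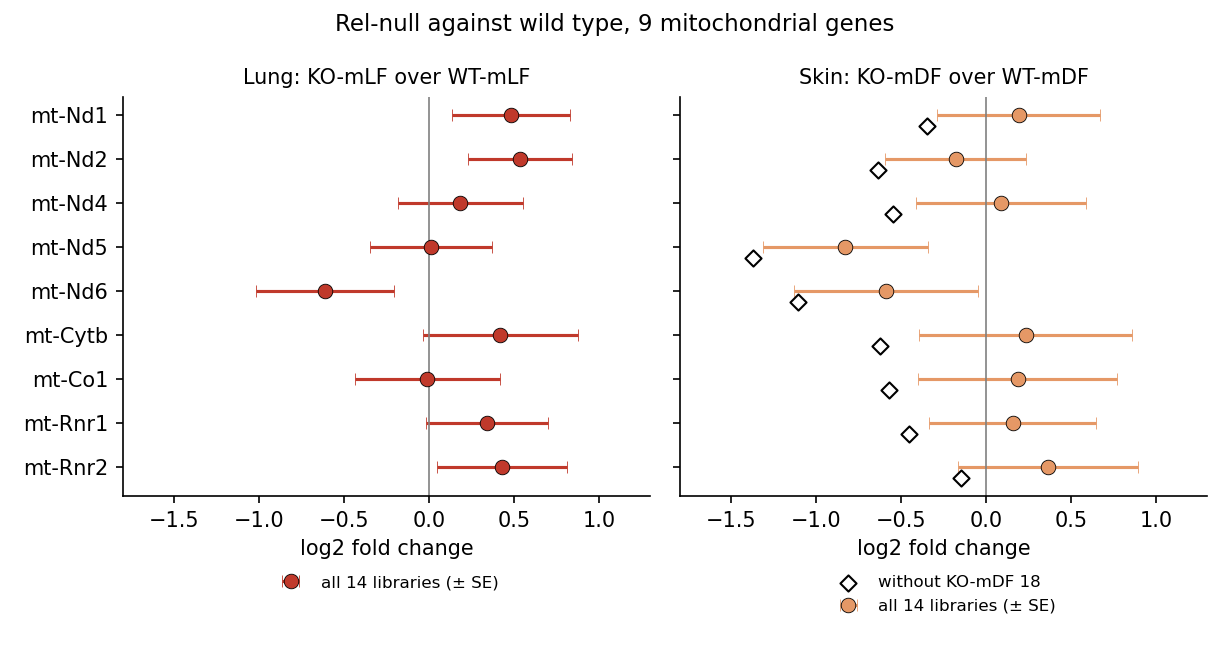
Log2 fold changes of the 9 countable mitochondrial genes between Rel-null and wild-type cultures in lung (left) and skin (right), from the edgeR fit of 14 libraries, with whiskers of ± SE; open diamonds give the skin values without KO-mDF 18. In lung mt-Nd2 has 0.53 and mt-Nd6 -0.61, and in skin the diamond of every gene lies below 0, down to -1.37 for mt-Nd5.

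The difference between the skin and lung effects was tested as an interaction in the same fit. It called 0 of 18 mitochondrial genes, in a comparison where 0.0% of all genes were called, and 0 had an unadjusted p under 0.05, against 4.67% of all genes, or 3.32% in the positive direction. By DESeq2 and limma-voom the number called was 0 too. Among the countable genes the smallest p was for mt-Nd5, with a log2 difference of -0.84 ± 0.60 (SE) and an unadjusted p of 0.182. mt-Nd2 followed at -0.71 ± 0.51 (SE), with an unadjusted p of 0.184. The smallest p of all members, 0.0862, was for the tRNA gene mt-Tm, whose counts were 220, 9 and 3 in KO-mDF and 0 in both WT-mDF libraries.

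Between wild-type tissues, no mitochondrial gene passed edgeR's test, and the 9 countable genes all had higher values in skin than in lung cultures, with the rRNAs ahead of the 7 mRNAs. All 9 had positive log2 fold changes for WT-mDF over WT-mLF, and 7 of them did not overlap between the groups, where 10.8% of all genes were higher and 8.19% lower without overlap. edgeR called 0 of 18 mitochondrial genes at an adjusted p of 0.05, against 2.97% of all genes, or 0.902% counting only those higher in skin. At an unadjusted p under 0.05 the count was 5 of 18, all higher in skin, against 13.2% of all genes, or 5.34% counting only those higher in skin. mt-Rnr1 had 943 and 822 CPM in WT-mDF 11 and 22, against 217, 233, 315, 327 and 399 CPM in WT-mLF 1, 3, 4, 5 and 23. The skin values were more than double every lung value, and the log2 fold change was 1.40 ± 0.42 (SE), with an unadjusted p of 0.00474 and an adjusted p of 0.104 in edgeR.

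mt-Rnr2 had 3203 and 2588 CPM in WT-mDF, against 759, 747, 720.4, 1218 and 1546 CPM in WT-mLF. Its groups did not overlap either, and its log2 fold change was 1.36 ± 0.46 (SE), with an adjusted p of 0.151 in edgeR. mt-Nd2 had 2720.4 and 2770.1 CPM in WT-mDF, against 1082, 758, 881, 1231 and 1512 CPM in WT-mLF. The log2 fold change was 1.13 ± 0.37 (SE), with an unadjusted p of 0.00701 and an adjusted p of 0.132 in edgeR. mt-Co1 was different: it had 13286 and 13168 CPM in WT-mDF, within the lung range of 5893 to 14318 CPM, and a log2 fold change of 0.05 ± 0.53 (SE). The median over the 7 countable mRNAs was 0.91, beside -0.13 over all genes. DESeq2 called 3 mitochondrial genes here, mt-Rnr1, mt-Nd2 and mt-Rnr2, with adjusted p-values of 0.0324, 0.0189 and 0.0388. The share of all genes that DESeq2 called is not given here, so these calls cannot be set beside it.

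In Rel-null cultures the rRNAs again had the largest tissue differences among the 9 countable genes. mt-Rnr2 had 5907, 2378 and 2567 CPM in KO-mDF 18, 19 and 20, against 2186, 796, 1798 and 809 CPM in KO-mLF 7, 8, 9 and 10. All skin values were higher, with a log2 fold change of 1.29 ± 0.44 (SE), an unadjusted p of 0.00927 and an adjusted p of 0.109 in edgeR. mt-Rnr1 had 1641, 538 and 681 CPM in KO-mDF, against 606, 229, 512 and 215 CPM in KO-mLF. KO-mLF 7 reached above KO-mDF 19, and the log2 fold change was 1.21 ± 0.41 (SE), with an adjusted p of 0.108 in edgeR. Without KO-mDF 18 the values were 0.75 for mt-Rnr2 and 0.56 for mt-Rnr1. The number called was 0 of 18 at an adjusted p of 0.05, against 5.05% of all genes, and 2 of 18 had an unadjusted p under 0.05, both higher in skin, against 19.1% of all genes, or 9.23% counting only those higher in skin. Of the 9 countable genes, mt-Rnr2 alone had no overlap, where 13.3% of all genes were higher and 7.58% lower without overlap. DESeq2 called mt-Rnr2 alone, and limma-voom called mt-Rnr1 and mt-Rnr2. For both tools the share of all genes called is not given here either.

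The mRNAs differed less in this comparison, with a median log2 fold change of 0.42 over the 7 countable ones, beside -0.01 over all genes, and -0.07 without KO-mDF 18. The third smallest p was that of the near-empty mt-Atp6, with 80, 5 and 11 counts in KO-mDF and 1, 3, 3 and 1 counts in KO-mLF 7, 8, 9 and 10, an unadjusted p of 0.0515 and an adjusted p of 0.266 in edgeR. The tissue comparisons in Rel-null and in wild-type cultures share no library. Macrophage markers differed with tissue: their 7 genes summed to 91.0 to 124 CPM in KO-mDF and 31.2 to 101 CPM in WT-mDF, against 7240.2 to 22372 CPM in KO-mLF and 4170.4 to 17947 CPM in WT-mLF. All 7 were above 0 in every lung library, while up to 2 were at 0 in a skin library. Skeletal muscle markers, also 7 genes, summed to 510 to 872 CPM in KO-mDF and 84.2 and 860 CPM in WT-mDF 11 and 22, against 26.2 to 905 CPM in KO-mLF, with the top value in KO-mLF 7, and 14.3 to 111 CPM in WT-mLF. None was at 0 in skin, except 1 in WT-mDF 11, while 3 to 6 were at 0 in each lung library. In KO-mLF 7 the sum came from Des at 573 CPM and Acta1 at 332 CPM, with the other 5 markers at 0. Des went the other way in WT-mDF 11, at 12.7 CPM, against 14.3 to 573 CPM in lung libraries. Keratinocyte markers summed to 3.07 to 12.4 CPM in lung, below all the skin sums given above. Krt5 was at 0 in every lung library. Perp went the other way in WT-mDF 11, at 0.344 CPM, against 2.14 to 12.4 CPM in lung libraries. Trp63 did not part the tissues either, at 0 in WT-mDF 11 and 0.469 CPM in KO-mDF 20, against up to 1.35 CPM in lung libraries. The 5 adipocyte markers summed to 93.4 to 338 CPM in KO-mDF and 2317 and 461 CPM in WT-mDF 11 and 22, against 225 to 587 CPM in KO-mLF and 283 to 1307 CPM in WT-mLF, with 1 to 3 at 0 in each library. Adipoq and Plin1 were at 0 in every lung library, whose adipocyte sums came almost wholly from Lpl and Fabp4. In WT-mDF 11 Adipoq and Plin1 were at 37.5 and 131 CPM, against 0 and 0.375 CPM in WT-mDF 22. Cidec went the other way, at 0 in every skin library and 1.61 CPM in WT-mLF 1. The part of these cell types in the tissue difference was not tested.

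**Figure D4:**
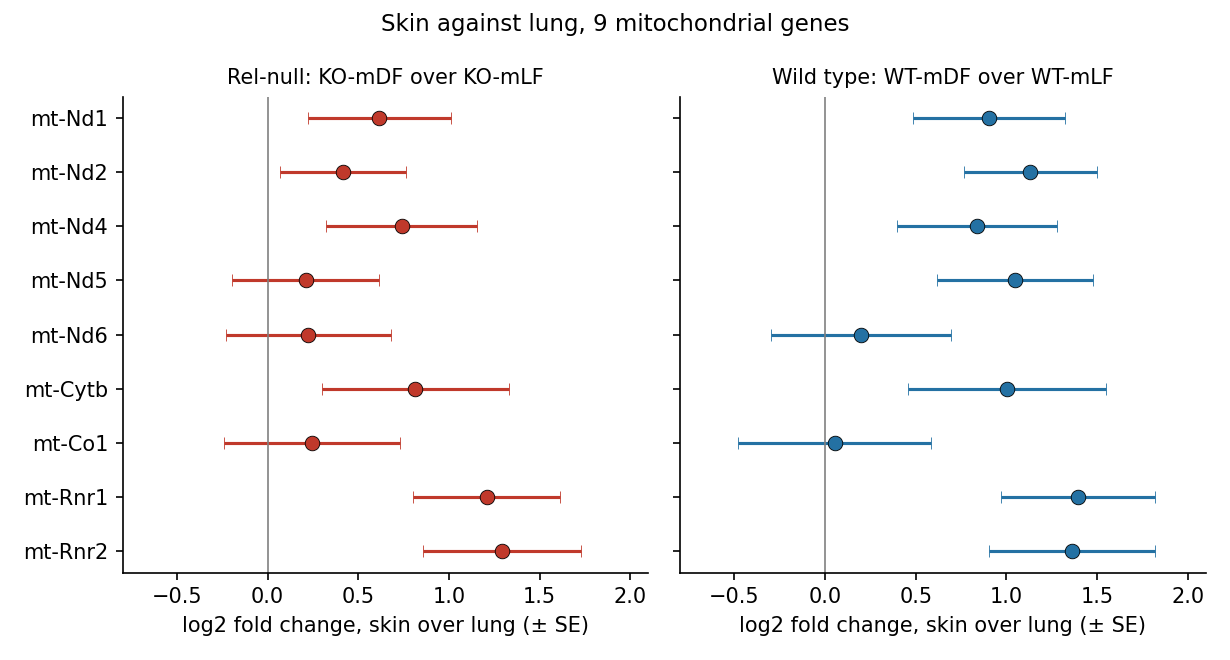
Log2 fold changes of the 9 countable mitochondrial genes between skin and lung cultures in Rel-null (left) and wild-type (right) mice, from the edgeR fit of 14 libraries, with whiskers of ± SE. Both rRNAs lie at 1.21 or above in each panel, while mt-Co1 has 0.25 in Rel-null and 0.05 in wild-type cultures.

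Within the mitochondrial counts, the balance between transcripts differed between the tissues of each genotype. The rRNAs made up 10.7%, 13.3% and 12.2% of mitochondrial counts in KO-mDF 18, 19 and 20 and 10.2% and 9.35% in WT-mDF 11 and 22. In lung they made up 9.97%, 4.61%, 7.47% and 4.68% in KO-mLF 7, 8, 9 and 10 and 3.89%, 7.66%, 5.70%, 5.91% and 7.10% in WT-mLF 1, 3, 4, 5 and 23. Skin exceeded lung without overlap within each genotype, with means of 12.0% ± 1.28 in KO-mDF, 9.76% ± 0.581 in WT-mDF, 6.68% ± 2.57 in KO-mLF and 6.05% ± 1.46 in WT-mLF (SD). Across genotypes the tissues overlapped, as KO-mLF 7 passed WT-mDF 22. KO-mDF 18, which had by far the highest mitochondrial share, had the lowest of the 3 KO-mDF values in this measure.

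mt-Co1 ran the other way. It held 42.5%, 39.3% and 39.6% of mitochondrial mRNA counts in KO-mDF 18, 19 and 20 and 36.3% and 39.8% in WT-mDF 11 and 22. In lung it held 43.8%, 50.3%, 47.9% and 48.3% in KO-mLF 7, 8, 9 and 10 and 52.0%, 49.9%, 56.6%, 53.2% and 56.3% in WT-mLF 1, 3, 4, 5 and 23. Every skin value was below every lung value. In lung the Rel-null values were lower except that KO-mLF 8 passed WT-mLF 3. The ratio of mt-Rnr2 to mt-Co1 counts was 0.221 to 0.317 in KO-mDF and 0.197 to 0.241 in WT-mDF, against 0.0745 to 0.198 in KO-mLF and 0.0605 to 0.127 in WT-mLF. The ratio of mt-Rnr2 to mt-Rnr1, which share 1 precursor, varied less, between 2.29 and 4.42 over all libraries. These parts of a whole are given as a description, without a test. Of the 75-base words of mt-Co1, 39.8% are shared with 2 nuclear genes, most of them with Gm29216.

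**Figure D5:**
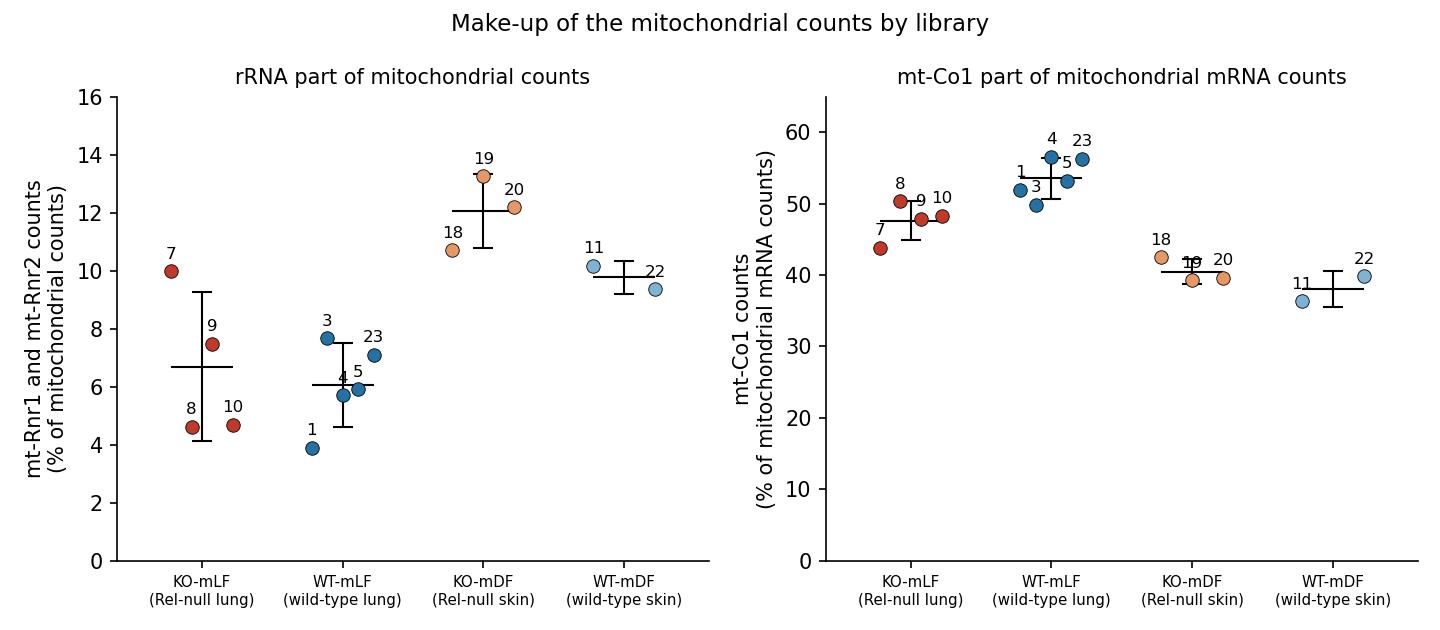
Counts on mt-Rnr1 and mt-Rnr2 as a percentage of mitochondrial counts (left) and mt-Co1 as a percentage of mitochondrial mRNA counts (right), by group; each point is 1 library with its number, and the bar with whiskers is the mean ± SD. On the left, skin lies above lung within each genotype (10.7% to 13.3% in KO-mDF and 9.35% to 10.2% in WT-mDF), and on the right every skin library is at 42.5% or less and every lung library at 43.8% or more.

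The mitochondrial tRNA genes were barely counted. Of the 22, 12 were at 0 in all libraries, and the other 10 held 1922 counts in all, beside 8388947 counts on all mitochondrial genes. Transcripts of this length are too short to hold a word of 75 bases, apart from mt-Tl1 with a single one. By mean CPM the highest were mt-Tw, mt-Tt and mt-Tm, which carry tryptophan, threonine and methionine. mt-Tt had 455, 66 and 97 counts in KO-mDF 18, 19 and 20, with 15.9 CPM in KO-mDF 18, against 0 and 2 counts in WT-mDF 11 and 22. It was higher in KO-mDF without overlap, as were 13.7% of all genes, and the unadjusted p in edgeR was 0.128. In lung it had 0, 36, 13 and 18 counts in KO-mLF 7, 8, 9 and 10, against 0, 0, 0, 12 and 15 counts in WT-mLF 1, 3, 4, 5 and 23. mt-Tt begins at the base after the end of mt-Cytb.

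mt-Tw overlaps the end of mt-Nd2 by 2 bases and had 241, 54, 52 and 19 counts in KO-mLF 7, 8, 9 and 10, against 42, 49, 0, 34 and 28 counts in WT-mLF 1, 3, 4, 5 and 23. The top value, 15.7 CPM, came from KO-mLF 7, and the groups overlapped, with an unadjusted p of 0.225 in edgeR. mt-Tm lies directly before mt-Nd2, and 220 of its counts came from KO-mDF 18. mt-Tq, the glutamine tRNA on the minus strand, was the 1 member with an unadjusted p under 0.05 in lung, 0.0407. Its counts were 0 in all 4 KO-mLF libraries and 0, 23, 0, 8 and 3 in WT-mLF 1, 3, 4, 5 and 23, and its adjusted p was 0.781 in edgeR.

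With edgeR on all 14 libraries, the nuclear genes that work with these transcripts gave no call in either genotype comparison. Of the list members named here, DESeq2 called Ndufa1, Mrpl28 and Ddit3 in skin. Its share of calls over all genes is not given here. The lists were those of complex subunits, mitochondrial transcription, RNA processing, ribosomal proteins, translation, biogenesis, dynamics and stress response. Of 81 nuclear subunits of complexes I to IV and ATP synthase in the fit, 66 were higher and 15 lower in KO-mLF than in WT-mLF, with a median log2 fold change of 0.26 beside -0.08 over all genes, and 4 had an unadjusted p under 0.05. In skin 74 were higher and 7 lower in KO-mDF than in WT-mDF, with a median of 0.49 beside 0.01 over all genes, and 15 had an unadjusted p under 0.05, beside the 6.31% and 6.24% of all genes in the lung and skin comparisons. With edgeR 0 of the 81 were called at an adjusted p of 0.05 in either tissue. The ratio of mitochondrial counts to counts on these 81 genes was 2.43 to 3.19 in KO-mLF, 1.61 to 5.11 in WT-mLF, 2.23 to 5.93 in KO-mDF and 4.32 to 6.15 in WT-mDF.

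By complex, the 36 nuclear subunits of complex I had medians of 0.27 in lung and 0.53 in skin. Ndufa8, an accessory subunit, averaged 95.9 ± 21.9 CPM in KO-mLF and 54.1 ± 17.7 CPM in WT-mLF (SD, n = 4 and 5), with a log2 fold change of 0.74 ± 0.31 (SE) and an adjusted p of 0.781 in edgeR. Ndufa1, another accessory subunit, averaged 78.8 ± 11.6 CPM in KO-mDF and 19.0 ± 13.5 CPM in WT-mDF (SD, n = 3 and 2), with a log2 fold change of 2.18 ± 0.58 (SE) and an adjusted p of 0.423 in edgeR, or 0.0363 in DESeq2. The 4 subunits of complex II, which has no mitochondrially encoded part, were higher in both tissues with medians of 0.24 and 0.38, and Sdhb had log2 fold changes of 0.33 ± 0.26 in lung and 0.49 ± 0.36 in skin (SE). The 9 nuclear subunits of complex III had medians of 0.22 in lung and 0.63 in skin, with 0.58 ± 0.30 for Uqcrh in lung and 0.81 ± 0.35 for Uqcrc1 in skin (SE).

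For complex IV, 10 of 16 nuclear subunits were higher in KO-mLF and 13 of 16 in KO-mDF. Cox6b1 averaged 203 ± 60.3 CPM in KO-mLF and 126 ± 31.5 CPM in WT-mLF (SD, n = 4 and 5). Cox7b averaged 127 ± 6.94 CPM in KO-mDF and 60.7 ± 1.18 CPM in WT-mDF (SD, n = 3 and 2), with a log2 fold change of 1.11 ± 0.35 (SE) and an adjusted p of 0.594 in edgeR. All 16 listed genes of ATP synthase and its inhibitor had positive log2 fold changes in both tissues, with medians of 0.31 in lung and 0.37 in skin. Atp5b, the catalytic beta subunit, had 0.49 ± 0.27 in lung, and Atp5l had 1.90 ± 0.62 in skin (SE).

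The 17 genes of mitochondrial DNA transcription and replication leaned the other way, with 12 lower in KO-mLF, 11 lower in KO-mDF and medians of -0.24 and -0.08. Polg, the catalytic subunit of the mitochondrial DNA polymerase, had a log2 fold change of -0.52 ± 0.33 in lung, and Twnk, the replicative helicase, had 1.61 ± 0.79 in skin (SE). Of the 22 genes of RNA processing and stability, 12 were lower in KO-mLF and 15 in KO-mDF, with Ptcd2 at 0.83 ± 0.42 in lung and Rexo2 at 0.74 ± 0.36 in skin (SE). The ribosomal proteins had 47 of 77 higher in KO-mLF and 57 of 77 in KO-mDF, with Mrpl57 at 1.29 ± 0.51 in lung and Mrpl28 at 1.80 ± 0.48 in skin (SE). Mrpl57 rested on KO-mLF 7, without which the value was 0.48. Without that library, lung values were 0.14 for Sdhb, 0.20 for Atp5b, -0.31 for Polg, -0.79 for Gfm2, 1.29 for Ppargc1b and 0.51 for Hspe1. In skin, Twnk had 0.85 without WT-mDF 11 and 3.37 without WT-mDF 22, Uqcrc1 had 1.35 and 0.44 in the same fits, and Gabpa had -0.35 without KO-mDF 18. Mrpl28 had an adjusted p of 0.423 in edgeR and 0.0428 in DESeq2.

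Of the 10 translation factors, 5 were higher in KO-mLF and 6 in KO-mDF, with Gfm2 at -1.19 ± 0.85 in lung and Gfm1 at 0.60 ± 0.39 in skin (SE). Of the 10 regulators of biogenesis, 4 were higher in KO-mLF and 3 in KO-mDF. Ppargc1b, a coactivator of respiratory genes, had 2.48 ± 1.61 in lung, and Gabpa, a transcription factor of respiratory genes, had -0.60 ± 0.36 in skin (SE). Of the 10 dynamics and mitophagy genes, 3 were higher in KO-mLF and 2 in KO-mDF. Bnip3, a mitophagy receptor, averaged 80.6 ± 42.9 CPM in KO-mLF and 178 ± 92.3 CPM in WT-mLF, with a log2 fold change of -1.10 ± 0.43 (SE) and an adjusted p of 0.781 in edgeR, and Fis1 had 0.84 ± 0.49 in skin (SE). Of the 14 stress response genes, 7 were higher in KO-mLF and 8 in KO-mDF. Hspe1, a chaperonin of the mitochondrial matrix, had 0.93 ± 0.35 (SE) in lung. Ddit3, a transcription factor of the integrated stress response, averaged 12.5 ± 5.13 CPM in KO-mDF and 67.5 ± 17.6 CPM in WT-mDF, with a log2 fold change of -2.36 ± 0.56 (SE) and an adjusted p of 0.359 in edgeR, or 0.00431 in DESeq2.

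Among the nuclear copies, Gm28437, the copy of mt-Co3, had 245, 49 and 59 counts in KO-mDF 18, 19 and 20, against 26 and 3 counts in WT-mDF 11 and 22. In CPM that was 8.54, 3.12 and 4.62, against 1.12 and 1.13, without overlap, as for 13.7% of all genes in this comparison. The log2 fold change was 2.31 ± 1.59 (SE) with an unadjusted p of 0.166 in edgeR. In lung it had 40, 52, 46 and 21 counts in KO-mLF, against 44, 26, 10, 70 and 36 counts in WT-mLF 1, 3, 4, 5 and 23, and the groups overlapped. In the lung comparison the copy with the smallest p was Gm28439, with 1 count over all KO-mLF libraries. At 75 bases, reads of these copies and of their mitochondrial sources cannot be told apart over the shared words.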

How the data were processed

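RNA sequencing of explant fibroblasts was deposited by the authors as a table of raw read counts per Ensembl gene for 14 libraries, whose titles name the columns. Per the submitters' processing notes, FastQC 0.11.2, Trimmomatic 0.33, STAR 2.4.2a and GRCm38 were used; for the counting tool, strand and reads with several matches, the setting is not given in the sources used here. GENCODE M21 named 48435 of 48795 rows, and 360 had no match. Groups followed the titles. The tests used edgeR 4.0.16 in R 4.3.3, with TMM factors, a filter on low counts (at least 10 in enough libraries and 15 in all, 16408 genes kept), 4 group means and Benjamini-Hochberg adjustment over all genes, threshold 0.05; folds come from this fit and CPM from library totals. Simulated data were used to check the fit. DESeq2 1.42.0, limma 3.58.1 (voom with quality weights), other scalings and filters, and left-out libraries were alternatives. Words of 75 bases, read off every position of a transcript, were looked up in GENCODE M21 transcripts. No 2 libraries of a group agreed within counting noise, with a chi-square per degree of freedom of at least 33.1. The members and gene lists were chosen with earlier results of these data known. Named genes were all mitochondrial mRNAs and rRNAs, the 3 tRNAs with the highest mean CPM, the 3 members with the smallest p in the other comparisons, and the gene of each list with the smallest p in lung and in skin. mt-Tq and mt-Tl1 were added after their values were seen.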

Additional observations from a re-analysis of the deposited data

How the results depend on the processing

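No paired analysis was possible because the groups share no library numbers. With each library left out, mitochondrial calls stayed at 0 in the genotype comparisons, their difference and wild-type tissues, and ran from 0 to 1 in Rel-null tissues (mt-Rnr1 without KO-mLF 7). In wild-type tissues 2 were called with no filter, 3 by DESeq2 and 1 with only the groups compared. In Rel-null tissues 1 was called with no filter, 1 by DESeq2 and 2 by limma-voom. The share of all genes called under these alternatives is not given here. Calls of the fit without KO-mDF 19 and 20 are not listed here, as it holds 1 library of KO-mDF. The totals over all alternatives, given at the end, do include the fits that leave 1 library in a group. Scaling by library totals with no factors moved the median of all genes by 0.20 in wild-type tissues.

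The lung value of mt-Co1 turned positive under RLE (0.0071), upper-quartile (0.0073), total (0.034) and nuclear-only (0.013) scaling, with no filter (0.015), at 1 CPM (0.025), in DESeq2 (0.0071) and limma-voom (0.087), with only the groups compared (0.018), without the 2 Xist-positive libraries (0.11) and without KO-mDF 19 and 20 (0.0034), and ran from -0.17 to 0.11 with 1 library left out. Lung mt-Nd5 ran from -0.16 to 0.18, and was -0.085 without the 4 libraries with most genes at 0. limma-voom gave -0.10 for mt-Rnr1 and -0.078 for mt-Rnr2 in lung.

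In skin, limma-voom gave -0.47 for mt-Rnr1, -0.13 for mt-Rnr2, -0.32 for mt-Nd1, -0.57 for mt-Co1, -0.57 for mt-Nd4 and -0.57 for mt-Cytb. Without the 4 libraries with most genes at 0 the values were -0.21 for mt-Rnr1, -0.42 for mt-Co1, -0.39 for mt-Nd4 and -0.24 for mt-Cytb. Without the Xist-positive libraries they were -0.017 for mt-Rnr1, -0.059 for mt-Nd1, -0.020 for mt-Nd4 and -0.040 for mt-Cytb. Without KO-mDF 19 and 20, mt-Nd2 had 0.49 and mt-Nd6 0.12. With 1 library left out, skin values ran from -0.45 to 0.43 for mt-Rnr1, -0.15 to 0.67 for mt-Rnr2, -0.35 to 0.55 for mt-Nd1, -0.64 to 0.070 for mt-Nd2, -0.57 to 0.49 for mt-Co1, -0.55 to 0.38 for mt-Nd4 and -0.63 to 0.61 for mt-Cytb; the lowest were without KO-mDF 18.

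The skin median over the 10 mRNAs tested was -0.57 in limma-voom, -0.51 without the 4 libraries and 0.91 without KO-mDF 19 and 20, and over the 7 countable ones -0.57, -0.42 and 0.89. With 1 library left out these medians ran from -0.63 to 0.41 and from -0.63 to 0.38. For the difference of effects, limma-voom gave -0.77 and -0.84, the fit without KO-mDF 19 and 20 gave 0.56 and 0.70, and left-out libraries gave -0.85 to 0.043 and -0.85 to 0.13. In wild-type tissues the 10-gene median was 0.50 without the 4 libraries. In Rel-null tissues it was 1.25 and the 7-gene median 1.14 without KO-mDF 19 and 20, and left-out libraries gave -0.071 to 0.68 and -0.071 to 0.67. The mitochondrial share of WT-mDF was 3.48% for mRNAs only and 3.50% with rRNAs left out of counts and totals. The cause of these moves was not tested. In all, 1299 values of single genes kept their direction and side of the threshold, 54 reversed and 16 became calls. Of the summary values, 381 kept their size and 28 moved. The skin value of Ndufa1 was 3.00 without WT-mDF 22, which leaves 1 library in WT-mDF. The fit without KO-mDF 19 and 20 and the 7-gene median were added after seeing the data. The near-empty mRNAs gave too few counts for a comparison, and 2 libraries of wild-type skin limit every skin comparison.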
